A study of Mus musculus with 3 samples.

Results

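Genes of the cell cycle and of DNA replication were followed as a set of 57 mouse genes chosen by name. It held 22 genes that act mainly in G1 and S phase, 34 that act in G2 phase and mitosis, and the cell cycle inhibitor Cdkn1a. A gene was read where its GRCm38 position matched 1 entry of the deposited tables and that entry stood alone at its locus. This gave values for 42 genes, namely 15 of the 22 G1/S genes, 26 of the 34 G2/M genes and Cdkn1a, out of 31930 entries per table, 17233 of which could be named in the same way. For 8 genes (Ccnd1, Ccne2, Gins2, Tk1, Ccna2, Kif20a, Nusap1 and Cdc20) entries of other genes lay at the same locus. A further 5 (Mcm3, Mcm7, Rrm1, Kif4 and Tpx2) were split over several entries, and for the other 2 (Foxm1 and Plk1) the entry ran on into a neighbouring gene. No value is given for these 15 genes.

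RNA of heart fibroblasts from 12 week old mice of C57/BL6 background was sequenced as 3 libraries, 1 per group. The library labelled FSP1+ held GFP+ cells of FSP1-GFP transgenic mice, sorted 10 days after myocardial infarction (MI) with CD45+ and CD31+ cells gated out. The library labelled αSMA+ held GFP+ cells of aSMA-GFP transgenic mice, sorted 10 days after MI on GFP alone. The uninjured library came from WT mice without infarction, whose digested heart cells were plated for 4 h and collected as the attached fraction. A GFP reporter of this kind marks any cell in which the FSP1 (S100a4) or αSMA (Acta2) promoter is active, and sorting, plating, genotype and injury cannot be told apart between the libraries.

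Values are FPKM (fragments per kilobase of transcript, scaled for library size within each table), which correct for gene length. The libraries were compared pair by pair, each pair in its own table, as the log2 ratio of FPKM + 1, so that the ratios of weakly expressed genes are understated. A gene counted as measured in a pair with at least 1 FPKM in either library, and as higher or lower at a ratio of at least 2-fold. Since each group is 1 library, differences were not checked against replicates, and the values carry no test. The 3 comparisons share libraries, and the levels of 1 library differ between its tables by a constant factor of 1.15 to 1.19. The tables give no read totals. Relative depth was estimated from entries above 0 and below 0.15 FPKM in both libraries of a pair. Their most common ratio was 1.57 for uninjured over FSP1+, 1.35 for αSMA+ over FSP1+ and 0.99 for uninjured over αSMA+. If such values stem from single reads, the FSP1+ library was deepest in relative terms. Single-read steps were not measured within a library, and the 3 estimates do not multiply up exactly.

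The genes of each reporter were read first. S100a4 had 35.3 FPKM in the FSP1+ library against 11.5 FPKM in the uninjured library (log2 ratio 1.54), and 30.8 FPKM in the FSP1+ library against 12.0 FPKM in the library labelled αSMA+ (1.29). Acta2 had 77.1 FPKM in the library labelled αSMA+ against 95.4 FPKM in the uninjured library (-0.30), and 279.8 FPKM in the library labelled FSP1+ against 65.0 FPKM in the library labelled αSMA+ (2.09). The level of Acta2 thus goes against the αSMA label, and every comparison below is one between libraries as labelled.

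A cell commits to division in G1 phase, when cyclin E and the E2F transcription factors switch on the genes for DNA replication. Replication origins are then loaded with the MCM helicase and copied in S phase, and in G2 phase and mitosis cyclin B with Cdk1, the Aurora kinases, the kinetochore and the spindle separate the copied chromosomes. Genes of these steps are transcribed in waves, and repressor complexes hold them down in resting cells, the state of most fibroblasts of the healthy adult heart. After MI, fibroblasts are known to divide mainly within the first days.

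Genes of both waves stood higher in the FSP1+ than in the uninjured library, and few did so in the αSMA+ library. In the comparison of the FSP1+ with the uninjured library, 34 of 42 genes were at least 2-fold higher and 0 were lower, with a median log2 ratio of 1.86. Of all 11768 named genes measured there, 14.3% were at least 2-fold higher and 14.8% lower, with a median of 0.05. In the comparison of the αSMA+ with the uninjured library, 3 of 37 genes measured were higher (Cdt1, Pcna and Cdkn1a) and 0 lower, with a median of -0.05. Among all 11474 named genes, 17.2% were higher and 6.32% lower, with a median of 0.07. When FPKM were rescaled to a common total (TPM), this comparison gave 2 genes higher and 6 lower of 39 measured. Between the FSP1+ and the αSMA+ library, 32 of 42 genes were higher in the FSP1+ library and 0 lower, with a median of 1.75. Among all 10907 named genes, 19.1% were higher and 13.7% lower, with a median of 0.04. Genes below 1 FPKM in the other library counted as measured only through the FSP1+ library and could not be called lower. With at least 1 FPKM required in both libraries, 21 of 30 genes were higher in the FSP1+ than in the αSMA+ library. The corresponding count over the uninjured library was 29 of 36. The share of all named genes under that filter was not computed. At least 4-fold higher were 20 genes of the set in the FSP1+ over the uninjured library (4.78% of all named genes), 1 gene, Cdkn1a, in the αSMA+ over the uninjured library (5.26%) and 17 genes in the FSP1+ over the αSMA+ library (3.34%). At least 4-fold lower were 0 genes of the set in each, against 1.14%, 0.706% and 1.76% of all named genes. In bulk RNA of this kind a larger share of dividing cells and more of these transcripts per cell cannot be told apart.

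**Figure D1:**
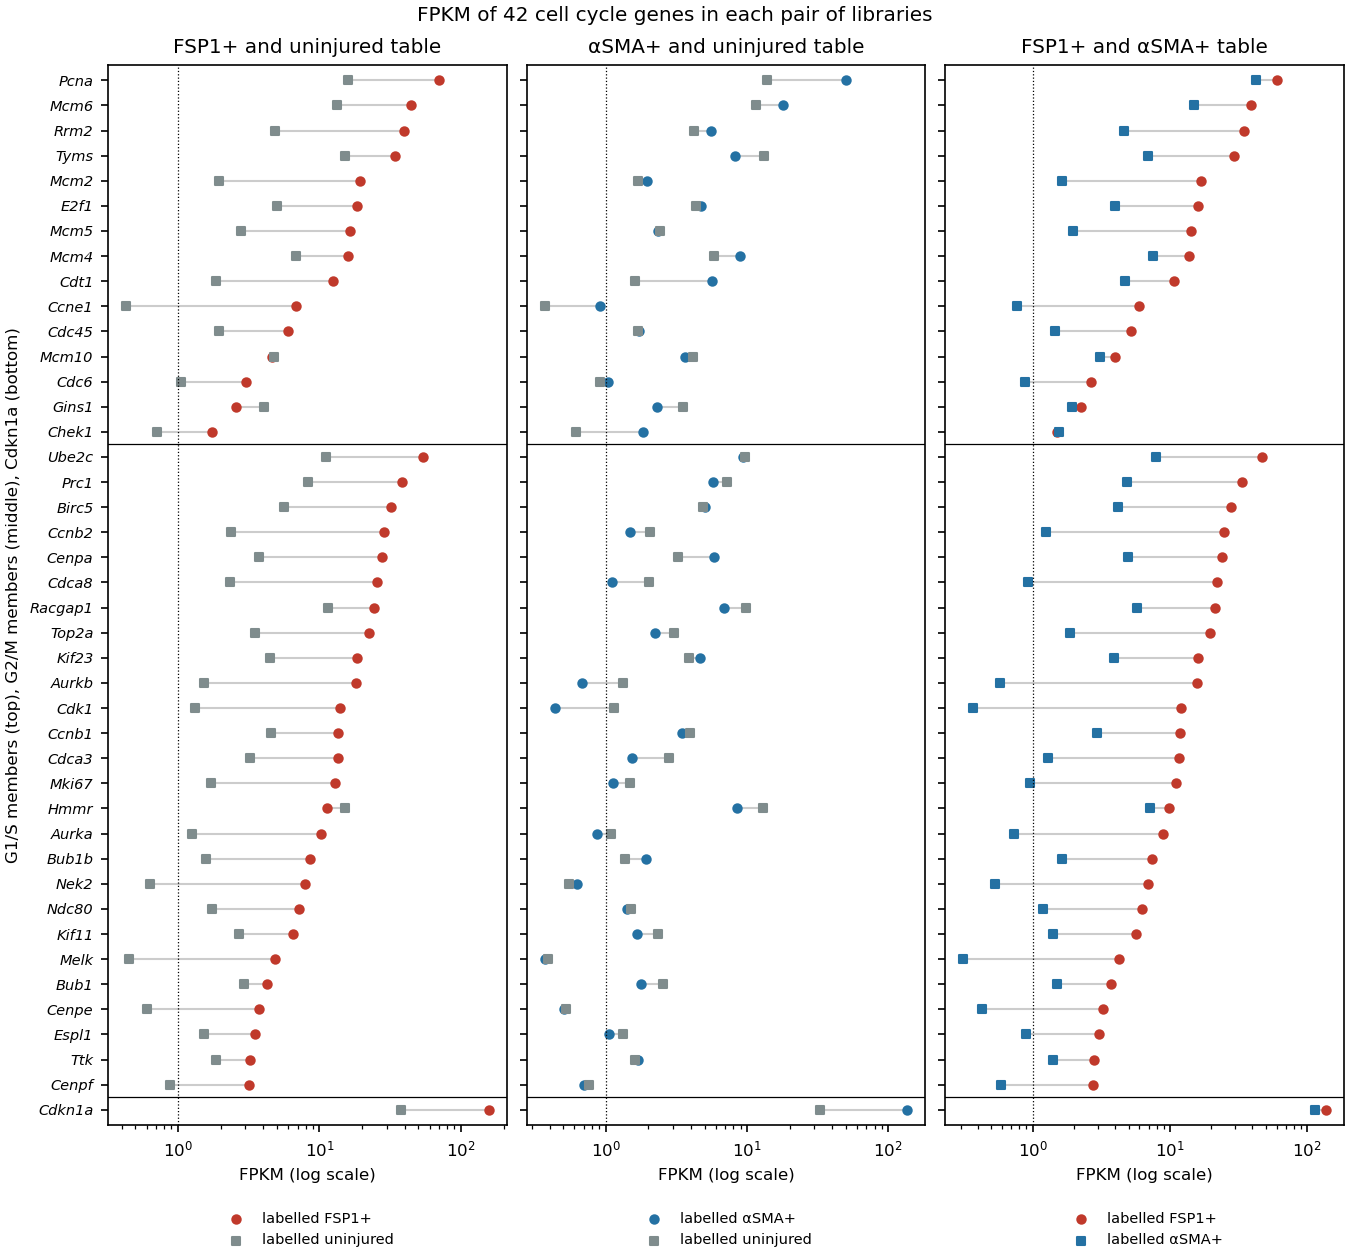
FPKM (log scale) of the 42 cell cycle genes in each pair of libraries, 1 panel per deposited table, with G1/S genes at the top, G2/M genes in the middle and Cdkn1a at the bottom, each ordered by the level in the library labelled FSP1+. Circles are the first-named library of the pair, squares the second, and the dotted line marks 1 FPKM. In the left and right panels 39 and 41 of 42 genes lie higher in the FSP1+ library, while in the middle panel the symbols of most genes lie close together.

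Across the 3 comparisons, with 1 FPKM added, 25 genes shared 1 pattern. They were at least 2-fold higher in the FSP1+ library than in either other library, and within 2-fold between the αSMA+ and uninjured libraries. Another 5 (Ccne1, Cenpe, Cenpf, Melk and Nek2) had the same pattern but stayed below 1 FPKM in both the αSMA+ and uninjured libraries. Within 2-fold in every comparison with 1 FPKM added were 7 genes: Bub1, Cdc6, Chek1, Gins1, Hmmr, Mcm10 and Ttk. With nothing added, some calls differed. Cdc6 was 2.90-fold and Chek1 2.46-fold higher in the FSP1+ than in the uninjured library. Cdc6 was 3.04-fold and Bub1 2.47-fold higher in the FSP1+ than in the αSMA+ library. Chek1 was 2.98-fold and Ccne1 2.44-fold higher, and Cdk1 2.62-fold lower, in the αSMA+ than in the uninjured library. The remaining 5 genes each deviated, Cdkn1a and Pcna being higher in both injured libraries than in the uninjured one, Cdt1 being higher in all 3 comparisons, Mcm4 only in that of the FSP1+ with the uninjured library and Espl1 only in that of the FSP1+ with the αSMA+ library. With nothing added Espl1 was also 2.31-fold higher in the FSP1+ than in the uninjured library. The comparisons share libraries, so the joint calls are linked. How many of all named genes have each joint pattern was not computed, so these counts have no background beside them.

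The promoter windows of the 2 waves differ in sequence. E2F proteins bind sites of the form TTTCCCGC, TTTCGCGC, TTTGGCGC or TTTGCCGC in G1/S genes, while many G2/M genes carry the cell cycle genes homology region (CHR), TTTGAA, bound by the MuvB complexes that repress them in resting cells, and CCAAT boxes bound by NF-Y. Each motif was searched on both strands of the RefSeq window of 250 bases before to 50 after the start (GRCm38.p6), which was held for 13 of the 15 G1/S genes, 25 of the 26 G2/M genes and Cdkn1a, and for 12274 named protein coding genes. E2F hits on opposite strands can overlap, as they do in Mcm6, and neighbouring motifs can share a base.

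A CHR was found in 19 of 25 G2/M windows (76.0%), in 2 of 13 G1/S windows (15.4%) and in 16.1% of all windows. CCAAT was found in 22 of 25 G2/M windows (88.0%), in 7 of 13 G1/S windows (53.8%) and in 39.6% of all windows. Both motifs together were present in 18 of 25 G2/M windows (72.0%) and in 6.86% of all windows. The E2F motif was found in 1 of 25 G2/M windows (4.0%, that of Cdk1), in 4 of 13 G1/S windows (30.8%) and in 2.95% of all windows. The hits also sat close to the start, since 18 of 25 G2/M windows (72.0%) held a CHR between 40 bases before and 50 bases after the start, against 3.4% of all windows, an interval chosen after the positions had been seen. The windows of 5 genes are shown from 150 bases before to 30 bases after the start because they cover both waves and both outcomes. Mcm6 is a G1/S gene with E2F motifs, Ccnb2, Cdk1 and Ube2c are G2/M genes that were higher in the FSP1+ library, and Hmmr is a G2/M gene with the same motifs that was within 2-fold in every comparison. Capitals mark E2F motifs (TTTCGCGC, TTTGGCGC or the reverse complements), CHR (TTTGAA or TTCAAA) and CCAAT boxes (CCAAT or ATTGG).
Mcm6 (chr1:128359676-128359855, minus strand): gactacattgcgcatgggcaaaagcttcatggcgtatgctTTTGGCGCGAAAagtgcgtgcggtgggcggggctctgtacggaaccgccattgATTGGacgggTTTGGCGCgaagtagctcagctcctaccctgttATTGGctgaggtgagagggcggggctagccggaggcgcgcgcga
Ccnb2 (chr9:70421525-70421704, minus strand): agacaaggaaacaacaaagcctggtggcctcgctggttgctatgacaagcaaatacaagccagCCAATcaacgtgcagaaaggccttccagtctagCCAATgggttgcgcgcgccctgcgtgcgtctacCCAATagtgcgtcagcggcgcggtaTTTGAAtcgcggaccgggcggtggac
Cdk1 (chr10:69352883-69353062, minus strand): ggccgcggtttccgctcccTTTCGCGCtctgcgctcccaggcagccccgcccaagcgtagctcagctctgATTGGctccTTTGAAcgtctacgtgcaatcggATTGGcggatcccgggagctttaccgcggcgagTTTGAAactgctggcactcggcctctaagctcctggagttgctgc
Ube2c (chr2:164769779-164769958, plus strand): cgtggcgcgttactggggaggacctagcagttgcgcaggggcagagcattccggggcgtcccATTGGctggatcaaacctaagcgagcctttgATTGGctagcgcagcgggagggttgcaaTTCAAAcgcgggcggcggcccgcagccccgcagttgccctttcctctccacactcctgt
Hmmr (chr11:40733408-40733587, minus strand): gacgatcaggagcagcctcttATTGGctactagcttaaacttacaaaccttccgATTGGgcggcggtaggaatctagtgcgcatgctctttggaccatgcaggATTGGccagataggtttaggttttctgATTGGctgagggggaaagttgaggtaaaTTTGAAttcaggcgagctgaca

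Among the G2/M genes with a window, the 19 with a CHR had a median log2 ratio of 1.89 in the FSP1+ over the uninjured library and the 6 without it 1.79. The corresponding medians were 2.07 and 1.85 in the FSP1+ over the αSMA+ library. The ranges of both sets overlapped in each comparison. These letters describe the windows, and binding was not measured.

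Among the G1/S genes, the regulators of S phase entry were higher in the FSP1+ library. E2f1, the transcription factor that drives the G1/S wave, had 18.5 FPKM in the FSP1+ library against 5.01 FPKM in the uninjured library (log2 ratio 1.70), and 4.74 FPKM in the αSMA+ library against 4.34 FPKM in the uninjured library (0.10). Ccne1, the cyclin that activates Cdk2 at the start of S phase, had 6.80 FPKM in the FSP1+ library against 0.431 FPKM in the uninjured library (2.45), and 0.911 FPKM in the αSMA+ library against 0.373 FPKM in the uninjured library. Ccne1 thus lay below the minimum of 1 FPKM in both the αSMA+ and uninjured libraries. Compared directly, the FSP1+ over αSMA+ ratios were 1.78 for E2f1 and 1.97 for Ccne1.

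Of the 6 subunits of the MCM helicase, which unwinds DNA at the fork, Mcm2, Mcm4, Mcm5 and Mcm6 were read, and all 4 were at least 2-fold higher in the FSP1+ than in the uninjured library. Mcm2 had 19.3 FPKM in the FSP1+ library against 1.96 FPKM in the uninjured library (2.78), and 1.95 FPKM in the αSMA+ library against 1.70 FPKM in the uninjured library (0.13). Mcm5 had 16.5 FPKM in the FSP1+ library against 2.80 FPKM in the uninjured library (2.20), and 2.33 FPKM in the αSMA+ library against 2.43 FPKM in the uninjured library (-0.04). These subunits were thus at nearly equal levels in the αSMA+ and uninjured libraries. Mcm6, whose promoter window is shown above, had 44.5 FPKM in the FSP1+ library against 13.3 FPKM in the uninjured library (1.67), and 17.9 FPKM in the αSMA+ library against 11.5 FPKM in the uninjured library (0.60). Mcm4 had 15.9 FPKM in the FSP1+ library against 6.78 FPKM in the uninjured library (1.12), and 8.90 FPKM in the αSMA+ library against 5.88 FPKM in the uninjured library (0.52). The subunits are held in 1 ring, but their ratios of the FSP1+ over the αSMA+ library ran over a range from 0.80 for Mcm4 to 2.75 for Mcm2, with 1.30 for Mcm6 and 2.37 for Mcm5.

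The factors that load and fire this helicase were mixed. Cdt1, which with Cdc6 loads it onto origins, was the 1 of the 9 genes of this step that was higher in all comparisons. It had 12.4 FPKM in the FSP1+ library against 1.85 FPKM in the uninjured library (2.23), 5.61 FPKM in the αSMA+ library against 1.60 FPKM in the uninjured library (1.35), and 10.8 FPKM in the FSP1+ library against 4.73 FPKM in the αSMA+ library (1.04). With 1 FPKM added Cdc6 lay just inside 2-fold (0.98), at 3.04 FPKM in the FSP1+ library against 1.05 FPKM in the uninjured library. Its αSMA+ over uninjured ratio was 0.09. Cdc45, which completes the active helicase, had 6.03 FPKM in the FSP1+ library against 1.94 FPKM in the uninjured library (1.26), with 0.02 for αSMA+ over uninjured and 1.35 for FSP1+ over αSMA+. Of the other activators, Gins1 had 2.58 FPKM in the FSP1+ library and 2.31 FPKM in the αSMA+ library, against 4.03 and 3.49 FPKM in the uninjured library in the 2 tables (-0.49 and -0.44). Mcm10 had 4.60 FPKM in the FSP1+ library against 4.77 FPKM in the uninjured library (-0.04), and 3.64 FPKM in the αSMA+ library against 4.13 FPKM in the uninjured library (-0.15). In the FSP1+ over the uninjured library 13 of 15 G1/S ratios were above 0, the others being those of Gins1 and Mcm10, and 14 of 15 were when ratios were taken through the αSMA+ library.

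Nucleotide supply and the sliding clamp showed a contrast between genes of S phase. Rrm2, the S phase subunit of ribonucleotide reductase, had 39.7 FPKM in the FSP1+ library against 4.86 FPKM in the uninjured library (2.80), and 5.53 FPKM in the αSMA+ library against 4.21 FPKM in the uninjured library (0.32). Tyms, which makes thymidylate, had 34.0 FPKM in the FSP1+ library against 15.2 FPKM in the uninjured library (1.11), and 8.27 FPKM in the αSMA+ library against 13.1 FPKM in the uninjured library (-0.61). Tyms thus had the lowest αSMA+ over uninjured ratio of the genes measured with 1 FPKM added. With nothing added Cdk1 was lower, at 0.38-fold against 0.63-fold for Tyms. Pcna, the clamp that holds polymerases on DNA and that also serves in DNA repair, had 69.6 FPKM in the FSP1+ library against 15.8 FPKM in the uninjured library (2.07), and 50.4 FPKM in the αSMA+ library against 13.7 FPKM in the uninjured library (1.80). Between the injured libraries Pcna was at 60.6 FPKM in the FSP1+ library and 42.5 FPKM in the αSMA+ library (0.50). It lay within 2-fold, as 6 of the 15 G1/S genes did in that comparison with 1 FPKM added. Chek1, the S phase checkpoint kinase, had 1.74 FPKM in the FSP1+ library and 1.83 FPKM in the αSMA+ library, against 0.709 and 0.615 FPKM in the uninjured library (0.68 and 0.81).

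The inhibitor Cdkn1a (p21), a p53 target that blocks cyclin-dependent kinases and binds PCNA, was the most abundant of the genes read in every library. It had 157 FPKM in the FSP1+ library against 37.7 FPKM in the uninjured library (2.03), 136 FPKM in the αSMA+ library against 32.6 FPKM in the uninjured library (2.03), and 137 FPKM in the FSP1+ library against 115 FPKM in the αSMA+ library (0.25). Both injured libraries were thus about 4.17-fold above the uninjured library and within 2-fold of each other. Transcripts of an inhibitor and of the genes it restrains were both high in the FSP1+ library, and in the αSMA+ library Cdkn1a and Pcna were high while the G2/M genes were not.

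All 6 mitotic cyclins and kinases read were higher in the FSP1+ than in either other library, with medians of 2.39 over the uninjured and 2.45 over the αSMA+ library. In the second of these comparisons Cdk1, Aurka, Nek2 and Melk had only 0.369, 0.733, 0.529 and 0.312 FPKM in the αSMA+ library. They counted as measured there only through the FSP1+ library and could not have been called lower. The same holds for Nek2 and Melk over the uninjured library. Cdk1, the kinase that starts mitosis, had 13.9 FPKM in the FSP1+ library against 1.32 FPKM in the uninjured library (2.68), 0.437 FPKM in the αSMA+ library against 1.14 FPKM in the uninjured library (-0.58), and 12.1 FPKM in the FSP1+ library against 0.369 FPKM in the αSMA+ library (3.26). Its partner Ccnb2 had 28.4 FPKM in the FSP1+ library against 2.39 FPKM in the uninjured library (3.12), 1.49 FPKM in the αSMA+ library against 2.07 FPKM in the uninjured library (-0.30), and 24.7 FPKM in the FSP1+ library against 1.25 FPKM in the αSMA+ library (3.51). Both promoter windows shown above hold a CHR and CCAAT boxes. Ccnb1, the other mitotic cyclin B, differed less, with 13.5 FPKM in the FSP1+ library against 4.55 FPKM in the uninjured library (1.39) and 3.48 FPKM in the αSMA+ library against 3.95 FPKM in the uninjured library (-0.14). Aurka, the kinase of the spindle poles, had 10.3 FPKM in the FSP1+ library against 1.25 FPKM in the uninjured library (2.32), and 0.869 FPKM in the αSMA+ library against 1.08 FPKM in the uninjured library (-0.16). Nek2, a centrosome kinase, and Melk, a kinase of dividing cells, had 7.95 and 4.88 FPKM in the FSP1+ library, against 0.638 and 0.450 FPKM in the uninjured library (2.45 and 2.02). In the αSMA+ library Nek2 and Melk were at 0.627 and 0.369 FPKM, below the minimum as in the uninjured library.

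All 3 genes read of the chromosomal passenger complex, which corrects chromosome attachment and guides cytokinesis, were higher in the FSP1+ than in either other library. Aurkb, its kinase, had 18.0 FPKM in the FSP1+ library against 1.53 FPKM in the uninjured library (2.91), 0.682 FPKM in the αSMA+ library against 1.33 FPKM in the uninjured library (-0.47), and 15.7 FPKM in the FSP1+ library against 0.575 FPKM in the αSMA+ library (3.41). Cdca8, which encodes borealin, had 25.4 FPKM in the FSP1+ library against 2.34 FPKM in the uninjured library (2.98), 1.10 FPKM in the αSMA+ library against 2.03 FPKM in the uninjured library (-0.53), and 22.1 FPKM in the FSP1+ library against 0.928 FPKM in the αSMA+ library (3.58). Cdca8 ranked 16, Ccnb2 19, Aurkb 22 and Cdk1 24 by FSP1+ over αSMA+ ratio among the 10907 named genes measured there. Cdca8, Aurkb and Cdk1 lay below 1 FPKM in the αSMA+ library and so counted as measured only through their level in the FSP1+ library. Birc5, which encodes survivin, had 32.2 FPKM in the FSP1+ library against 5.65 FPKM in the uninjured library (2.32), and 5.01 FPKM in the αSMA+ library against 4.90 FPKM in the uninjured library (0.03).

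The markers Mki67 and Top2a, which are used to count dividing cells, were also high in the FSP1+ library. Mki67, which encodes Ki-67, had 12.8 FPKM in the FSP1+ library against 1.71 FPKM in the uninjured library (2.35), and 1.13 FPKM in the αSMA+ library against 1.48 FPKM in the uninjured library (-0.22). Top2a, the topoisomerase that untangles chromosomes, had 22.4 FPKM in the FSP1+ library against 3.50 FPKM in the uninjured library (2.38), and 2.23 FPKM in the αSMA+ library against 3.03 FPKM in the uninjured library (-0.32). Their FSP1+ over αSMA+ ratios were 2.63 and 2.83. The Top2a entry, like that of Ndc80, also holds a small RNA gene.

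Genes of the centromere, the kinetochore and the spindle checkpoint were more uneven, with 5 of 7 higher in the FSP1+ than in the uninjured library and a median of 1.56. Cenpa, the histone that marks centromeres, had 27.5 FPKM in the FSP1+ library against 3.76 FPKM in the uninjured library (2.58), and 5.84 FPKM in the αSMA+ library against 3.26 FPKM in the uninjured library (0.68), the highest αSMA+ over uninjured ratio of the G2/M genes. Bub1b, which encodes the checkpoint protein BubR1, had 8.57 FPKM in the FSP1+ library against 1.58 FPKM in the uninjured library (1.89), and 1.94 FPKM in the αSMA+ library against 1.37 FPKM in the uninjured library (0.31). The checkpoint kinases Bub1 and Ttk were the 2 genes of this step that stayed within 2-fold with 1 FPKM added. Bub1 had 4.27 FPKM in the FSP1+ library against 2.92 FPKM in the uninjured library (0.43), and Ttk had 3.23 against 1.86 FPKM in the same libraries (0.56). Their ratios in the FSP1+ over the αSMA+ library were 0.91 for Bub1 and 0.66 for Ttk. Ndc80, which binds microtubules at the kinetochore, had 7.15 FPKM in the FSP1+ library against 1.74 FPKM in the uninjured library (1.57), and its αSMA+ over uninjured ratio was -0.05. The large kinetochore proteins Cenpe and Cenpf had 3.73 and 3.18 FPKM in the FSP1+ library, against 0.608 and 0.876 FPKM in the uninjured library (1.56 and 1.15), and were at 0.507 and 0.702 FPKM in the αSMA+ library.

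Of the 5 spindle and cytokinesis genes read, 4 were higher in the FSP1+ than in the uninjured library, with a median of 1.04. Prc1, which bundles the central spindle, had 38.2 FPKM in the FSP1+ library against 8.29 FPKM in the uninjured library (2.08), and 5.73 FPKM in the αSMA+ library against 7.19 FPKM in the uninjured library (-0.28). Kif23 and Racgap1 form the centralspindlin complex. Kif23 had 18.4 FPKM in the FSP1+ library against 4.45 FPKM in the uninjured library (1.83), and Racgap1 had 24.5 against 11.4 FPKM in the same libraries (1.04). In the αSMA+ over the uninjured library Kif23 was at 0.21 and Racgap1 at -0.47. Kif11, the motor that pushes spindle poles apart, had 6.47 FPKM in the FSP1+ library against 2.70 FPKM in the uninjured library (1.01), with a ratio of -0.32 for αSMA+ over uninjured. Hmmr, a spindle protein that is also known as a receptor of hyaluronan, had 11.4 FPKM in the FSP1+ library against 15.1 FPKM in the uninjured library (-0.38), and 8.49 FPKM in the αSMA+ library against 13.1 FPKM in the uninjured library (-0.57). Hmmr was the 1 of 26 G2/M genes with a ratio below 0 in the FSP1+ over the uninjured library. It was also the most abundant G2/M gene read in the uninjured library.

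Of the 3 genes read of anaphase and mitotic exit, 2 were higher in the FSP1+ than in the uninjured library and all 3 were higher in the FSP1+ than in the αSMA+ library. Ube2c, the ubiquitin-conjugating enzyme of the anaphase-promoting complex, was the most abundant G2/M gene read in both injured libraries. It had 53.9 FPKM in the FSP1+ library against 11.2 FPKM in the uninjured library (2.17), and 9.39 FPKM in the αSMA+ library against 9.71 FPKM in the uninjured library (-0.04). Cdca3, an adaptor of a ubiquitin ligase at mitotic entry, had 13.4 FPKM in the FSP1+ library against 3.23 FPKM in the uninjured library (1.77), and 1.53 FPKM in the αSMA+ library against 2.80 FPKM in the uninjured library (-0.59). Espl1, which encodes the protease separase, had 3.51 FPKM in the FSP1+ library against 1.52 FPKM in the uninjured library (0.84), and 3.06 FPKM in the FSP1+ library against 0.893 FPKM in the αSMA+ library (1.10).

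The 2 waves were then set against each other. In the FSP1+ over the uninjured library, 22 of 26 G2/M genes and 11 of 15 G1/S genes were at least 2-fold higher (medians 1.96 and 1.67), beside 14.3% of all named genes. The waves overlapped there, since 6 of 15 G1/S ratios exceeded the G2/M median. In the FSP1+ over the αSMA+ library, 23 of 26 G2/M genes and 9 of 15 G1/S genes were higher (medians 2.04 and 1.30), beside 19.1% of all named genes. In the αSMA+ over the uninjured library, 0 of 22 G2/M genes and 2 of 14 G1/S genes measured were higher (medians -0.25 and 0.12), beside 17.2% of all named genes. The G1/S median was above 0 there except after rescaling to TPM, where it was -0.26, while the G2/M median stayed below 0 under each scaling tried. The G2/M median minus the G1/S median was 0.28, -0.37 and 0.73 in the FSP1+ over uninjured, the αSMA+ over uninjured and the FSP1+ over αSMA+ comparison. Its sign held in each under every alternative tried. Centring the ratios on the median of all named genes and leaving out Ccnd1 and Cdkn1a could not change this difference. Ccnd1 was in any case not read. Dropping the filter could not change it in the comparisons of the FSP1+ library, where every gene read was already measured.

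**Figure D2:**
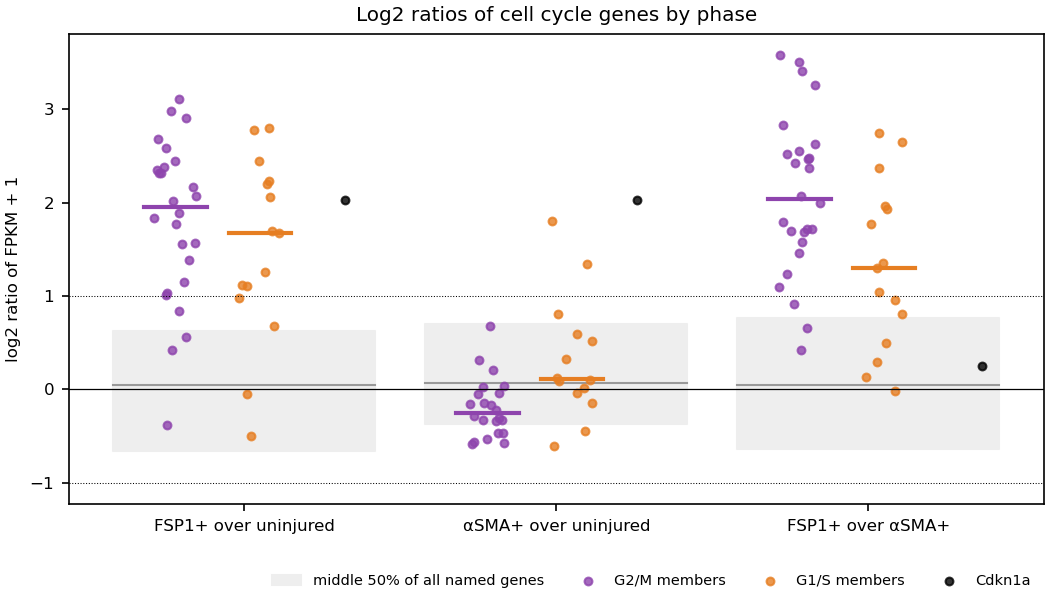
Log2 ratios of FPKM + 1 (vertical axis) of the measured G2/M genes, G1/S genes and Cdkn1a in the 3 comparisons. Points are genes, thick bars the median of each wave, the grey band the middle 50% of all named genes with its median as a line, and dotted lines mark 2-fold. Both waves lie mostly above the band in the 2 comparisons of the FSP1+ library, and in that of αSMA+ over uninjured the G2/M median (-0.25) lies below the G1/S median (0.12, or -0.26 against -0.68 for G2/M after rescaling to TPM).

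The waves were also compared by their summed levels within each library, where the share of either wave does not depend on the scaling of the library. The 26 G2/M genes summed to 417 FPKM in the FSP1+ library against 96.6 FPKM in the uninjured library, and the 15 G1/S genes to 295 against 80.5 FPKM. In the αSMA+ library the G2/M genes summed to 70.7 FPKM against 83.7 FPKM in the uninjured library, and the G1/S genes to 117 against 69.7 FPKM. G2/M genes thus made up 58.6% of the summed FPKM in the FSP1+ library, 37.6% in the αSMA+ library and 54.5% in the uninjured library. Without Pcna, the most abundant G1/S gene read, the shares were 64.9% in the FSP1+, 51.4% in the αSMA+ and 59.9% in the uninjured library. This calculation was added after the data had been seen. Level by level, which does depend on the scaling, 20 of 26 G2/M genes had a lower and 11 of 15 G1/S genes a higher FPKM in the αSMA+ than in the uninjured library. After rescaling to TPM 5 of 15 G1/S ratios and 1 of 23 G2/M ratios were above 0, and 8 of 14 and 3 of 22 were when ratios were taken through the FSP1+ library.

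**Figure D3:**
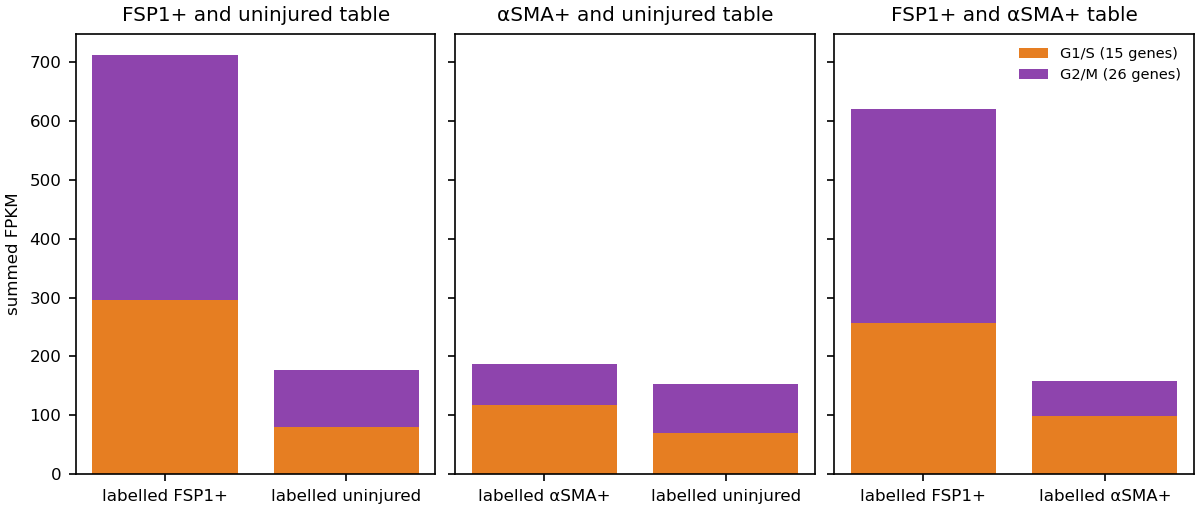
Summed FPKM (vertical axis, from 0) of the 15 G1/S and 26 G2/M genes in each pair of libraries, 1 panel per deposited table. The G2/M part is 58.6% of the bar of the library labelled FSP1+, 37.6% of that labelled αSMA+ and 54.5% of the uninjured one, and the bars of 1 library differ between panels by the constant scale factor of its tables.

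Other genes of the same processes, listed by name, were read in the same way. Of 66 further mitosis genes 49 were measured in the FSP1+ over the uninjured library. Of these 25 were higher and 1 lower, beside 14.3% and 14.8% of all named genes, with a median of 1.04 for the mitosis genes. Among the most abundant, Stmn1 (stathmin, which destabilises microtubules) had 175 FPKM in the FSP1+ library against 15.0 FPKM in the uninjured library (3.46), and Cks2, a subunit of the Cdk1 complex, had 47.0 against 8.82 FPKM (2.29). Pttg1 (securin) and the checkpoint gene Bub3 stayed within 2-fold in that pair, at 0.73 and 0.96. In the αSMA+ over the uninjured library 1 of 41 was higher and 2 were lower (median -0.18), beside 17.2% and 6.32% of all named genes. The 1 higher was Cks2, with 16.4 FPKM in the αSMA+ library against 7.65 FPKM in the uninjured library (1.01), and the 2 lower were Kif14 (-2.16) and Tacc3 (-2.70), named after their values had been seen. Tacc3, a protein of spindle microtubules, had 1.69 FPKM in the αSMA+ library against 16.4 FPKM in the uninjured library. In the FSP1+ over the αSMA+ library 36 of 49 were higher and 1 lower (median 1.43), beside 19.1% and 13.7% of all named genes. The 1 lower was the kinetochore gene Cenpw (-1.32), which was likewise named after its value had been seen.

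Of 45 further replication genes 30 were measured in the FSP1+ over the uninjured library. Of these 12 were higher and 0 lower, beside 14.3% and 14.8% of all named genes, with a median of 0.78 for the replication genes. Slbp, which binds histone mRNA, had 58.3 FPKM in the FSP1+ library against 24.5 FPKM in the uninjured library (1.22), and Rfc2, a subunit of the clamp loader, had 29.0 against 12.1 FPKM (1.19). Pole3, a small subunit of polymerase epsilon, was at 0.88. In the αSMA+ over the uninjured library 0 of 29 were higher and 3 lower (median -0.06), beside 17.2% and 6.32% of all named genes. The 3 lower were Chaf1b, Gins4 and Dut, the last pair named after their values had been seen. Chaf1b, a subunit of the chromatin assembly factor that follows the fork, had 2.75 FPKM in the αSMA+ library against 9.31 FPKM in the uninjured library (-1.46), and 33.7 FPKM in the FSP1+ library against 10.7 FPKM in the uninjured library (1.56). In the FSP1+ over the αSMA+ library 15 of 30 were higher and 0 lower (median 1.01), beside 19.1% and 13.7% of all named genes.

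Regulators upstream of S phase and targets of p53 were read as 2 further lists. Of 32 genes of G1 entry and its brakes, 5 of 21 measured were higher and 1 lower in the FSP1+ over the uninjured library (median 0.50), where 14.3% of all named genes were higher and 14.8% lower. For the αSMA+ over the uninjured library 4 of 20 were higher and 2 lower (0.26), beside 17.2% and 6.32% of all named genes, and in the FSP1+ over the αSMA+ library 5 of 21 were higher and 0 lower (0.38), beside 19.1% and 13.7%. Cdk4, the G1 kinase, had 91.3 FPKM in the FSP1+ library against 63.9 FPKM in the uninjured library (0.51), and 55.7 FPKM in the αSMA+ library against 55.4 FPKM in the uninjured library (0.01). Cdkn1c (p57), a brake related to Cdkn1a, had 52.7 FPKM in the FSP1+ library and 47.8 FPKM in the αSMA+ library, against 20.0 and 17.3 FPKM in the uninjured library (1.36 and 1.42). Cdkn1c thus shared the pattern of Cdkn1a, high in both injured libraries, but the other Cdkn genes measured on this list did not. Over the uninjured library Cdkn2b was at -1.11 in the FSP1+ and -1.27 in the αSMA+ library, and Cdkn1b at -0.07 and -0.62. Cdkn2c was at 0.50 and -1.21, and Cdkn2d at 1.72 and -0.33. These other Cdkn genes were named after their values had been seen.

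Of 25 p53 targets other than Cdkn1a, 6 of 19 measured were higher and 1 lower in the FSP1+ over the uninjured library (median 0.43), beside 14.3% and 14.8% of all named genes. For the αSMA+ over the uninjured library 8 were higher and 2 lower (0.54), beside 17.2% and 6.32%, and in the FSP1+ over the αSMA+ library 6 were higher and 5 lower (0.48), beside 19.1% and 13.7%. Btg2, an antiproliferative gene, had 237 FPKM in the FSP1+ library against 32.6 FPKM in the uninjured library (2.82), and 78.8 FPKM in the αSMA+ library against 28.3 FPKM in the uninjured library (1.45). Plk2, a stress-responsive kinase, had 174 FPKM in the FSP1+ library against 24.1 FPKM in the uninjured library (2.80), and 129 FPKM in the αSMA+ library against 20.9 FPKM in the uninjured library (2.57). The targets did not move as 1, since Phlda3 had 29.6 FPKM in the αSMA+ library against 128 FPKM in the uninjured library (-2.07), and the apoptosis gene Bax was at 1.15 in the FSP1+ and 0.53 in the αSMA+ over the uninjured library.

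Markers of other cell types also differed between the libraries. Most endothelial and macrophage markers were higher in both injured libraries than in the uninjured library, and higher in the FSP1+ than in the αSMA+ library. Of the endothelial markers 18 of 18 measured were higher in the FSP1+ than in the uninjured library (median 3.92), summing to 5367 against 199.7 FPKM, and 13 of 18 were higher in the αSMA+ than in the uninjured library (1.91), summing to 889 against 173 FPKM. Of the macrophage and monocyte markers 19 of 19 measured were higher in the FSP1+ than in the uninjured library (4.10), summing to 5109 against 182 FPKM, and 17 of 19 in the αSMA+ than in the uninjured library (3.11), summing to 1837 against 158 FPKM. Between the injured libraries 17 of 18 endothelial (1.94) and 15 of 19 macrophage markers (1.74) were higher in the FSP1+ than in the αSMA+ library. Beside these counts, 14.3% of all named genes were higher in the FSP1+ over the uninjured library. The shares were 17.2% in the αSMA+ over the uninjured and 19.1% in the FSP1+ over the αSMA+ library. No marker of either list was at 0 in any library. Pecam1 (CD31), gated out of the FSP1+ sort, had 180 FPKM in the FSP1+ library against 9.96 FPKM in the uninjured library, and Ptprc (CD45), likewise gated out, 13.9 against 3.79 FPKM. Cdh5 had 73.6 FPKM in the FSP1+ library against 3.21 FPKM in the uninjured library, and 13.3 FPKM in the αSMA+ library against 2.78 FPKM in the uninjured library. The part of these cells in the levels of the cell cycle genes was not tested.

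Of the fibroblast markers 1 of 13 was higher and 9 lower in the FSP1+ than in the uninjured library (-1.19), 1 higher and 4 lower in the αSMA+ than in the uninjured library (0.07), and 5 higher and 5 lower in the FSP1+ than in the αSMA+ library (0.75). In the same order, 14.3%, 17.2% and 19.1% of all named genes were higher and 14.8%, 6.32% and 13.7% lower. These shares also stand beside the smooth muscle and pericyte counts below. The fibroblast markers summed to 9660.6 FPKM in the FSP1+ library against 19629.1 FPKM in the uninjured library. In the αSMA+ library they summed to 32484.5 FPKM against 16991.1 FPKM in the uninjured library, with 8 of 13 ratios above 0. The highest single marker there had 24549.6 FPKM. Col1a1 had 1034 FPKM in the FSP1+ library against 2357 FPKM in the uninjured library. It went against the summed level in the αSMA+ library, with 316 FPKM against 2037 FPKM in the uninjured library. Of the smooth muscle and pericyte markers, 8 of 12 were higher and 0 lower in the FSP1+ than in the uninjured library (1.51), 0 higher and 2 lower in the αSMA+ than in the uninjured library (-0.37) and 11 of 12 higher in the FSP1+ than in the αSMA+ library (2.01). Their summed level was 1819 FPKM in the FSP1+ library against 609 FPKM in the uninjured library, and 426 FPKM in the αSMA+ library against 528 FPKM in the uninjured library. In the FSP1+ over the uninjured library the medians of the 3 shorter lists were 0.26 for mesothelial, 0.52 for cardiomyocyte and 0.75 for Schwann cell markers, and in the αSMA+ over the uninjured library they were at -0.58, 1.25 and 0.25. Lymphocyte and neutrophil markers were at 0.43 and 0.67 in the same comparisons. The part of any of these cells in the cell cycle result was likewise not tested.

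**Figure D4:**
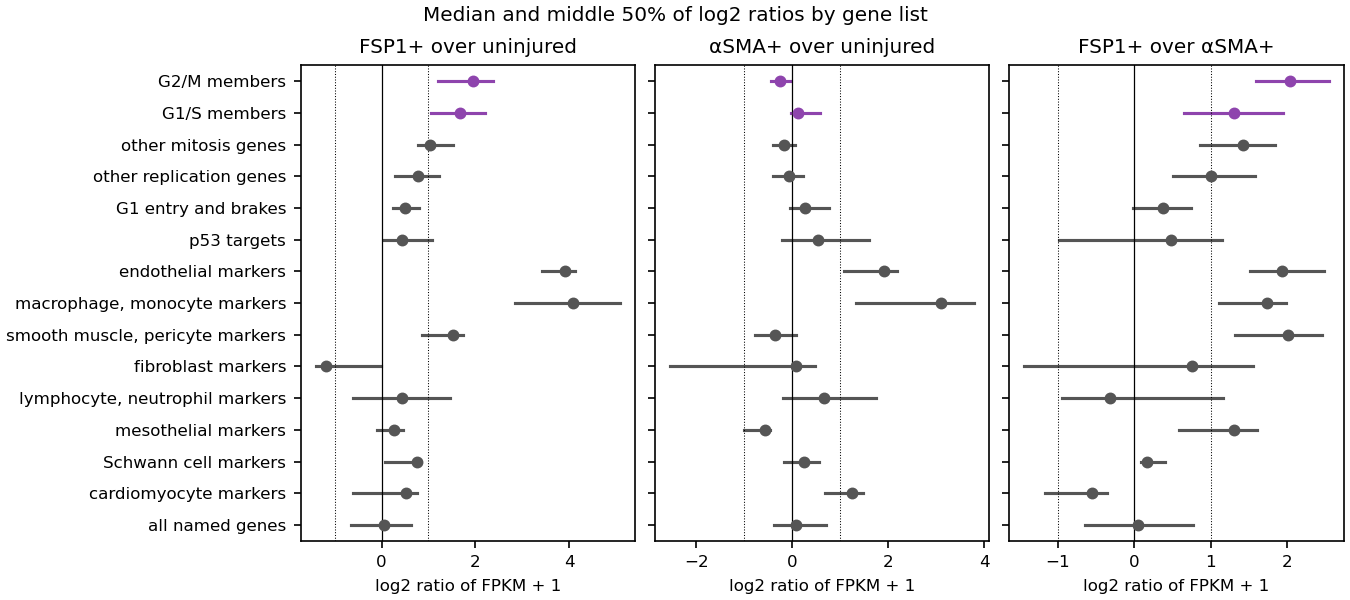
Median (point) and middle 50% (line) of the log2 ratio of FPKM + 1 over the measured genes of each list, in the 3 comparisons, with the G2/M and G1/S genes in purple and dotted lines at 2-fold. The endothelial and macrophage markers have the highest medians over the uninjured library (3.92 and 4.10 in the FSP1+ library, 1.91 and 3.11 in the αSMA+ library), and the cell cycle lists lie to the right in the 2 panels with the FSP1+ library on top of the ratio and near 0 in the other.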

How the data were processed

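RNA-seq of 3 mouse libraries, 1 per group, was used as deposited: 3 tables of 31930 entries, 1 for each pair of libraries. The authors' values are FPKM from Cuffdiff (version not given in the sources used here), on GRCm38 with an offset of 0.001 that was removed. The labels name single reads of 50 bp and the study's methods paired ends. The deposited columns of log2 fold, test statistic, p-values and q-values hold the authors' own comparisons and were not used. No column of another sample was present (0).

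Entries carry UCSC identifiers. A symbol was given where an entry stood alone at its locus and overlapped a RefSeq (GRCm38.p6) or, failing that, GENCODE M21 gene by at least 0.8 of their union, the next gene being below 0.7. This named 17233 entries (15291 protein coding) and left 8265 at shared loci unnamed. A small RNA gene lies within 674 of those named. Ratios are log2 of FPKM + 1, for genes of at least 1 FPKM in either library, with a threshold of 2-fold. The ratio formula, filter and threshold were tried on simulated data, with changes placed only in genes that were not weakly expressed. That trial does not cover changes at low levels. The work used matplotlib 3.10.9, NumPy 2.4.6 and pandas 2.3.3 under Python 3.11.15, and promoter sequences are from RefSeq.

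All 57 genes of the set are named, and from the 12 other lists the rule allowed the 4 genes of each with the highest mean FPKM, the reporter genes and the defining markers Pecam1, Cdh5, Ptprc and Col1a1. Not every gene allowed is printed. Kif14, Tacc3, Cenpw, Gins4, Dut, Cdkn1b, Cdkn2b, Cdkn2c and Cdkn2d lie outside the rule and were named after their values had been seen. The genes and lists were chosen with earlier results of these data known, so a pattern in them is not independent support. Alternatives varied the added FPKM, the filter, the scaling, the threshold and the genes included.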

Additional observations from a re-analysis of the deposited data

How the results depend on the processing

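Of the 48 values computed per comparison (counts, medians and the difference between the waves, under each alternative), 46 for FSP1+ over uninjured, 45 for αSMA+ over uninjured and 45 for FSP1+ over αSMA+ stayed within 1.5 times the reported value (counts) or within 0.585 of it on the log2 scale (medians and differences). The difference between the waves could not change under centring or without Ccnd1 and Cdkn1a, yet is counted there. Dropping the filter could change no value in the comparisons of the FSP1+ library, where every gene read was already measured. Those values are counted too. Over the alternatives the median ran from 1.18 to 2.12, from -0.53 to 0.32 and from 1.10 to 2.10 in these comparisons. The G2/M minus G1/S difference ran from 0.06 to 0.57, from -0.73 to -0.16 and from 0.45 to 1.11. With 5 FPKM added, the median was 1.18 for FSP1+ over uninjured and 1.10 for FSP1+ over αSMA+. At a 4-fold threshold 20, 1 and 17 genes were higher in the FSP1+ over uninjured, αSMA+ over uninjured and FSP1+ over αSMA+ comparisons, against 4.78%, 5.26% and 3.34% of all named genes. With at least 1 FPKM required in both libraries, 21 of 30 genes were higher in the FSP1+ over the αSMA+ library. In the αSMA+ over the uninjured library the count of lower genes was 1 with 0.1 FPKM added and 6 after rescaling to TPM. Rescaling to TPM moved the median of all named genes by -0.26 (FSP1+ over uninjured) and -0.53 (αSMA+ over uninjured), and ratios taken through the library shared by the other tables moved it by 0.23, -0.24 and -0.23 in the order above, so changes near 0 in the αSMA+ over the uninjured library rest on the scaling. Adding the 5 genes split over several entries, each by its most abundant entry, gave 38 of 47 higher in the FSP1+ over the uninjured library. No paired analysis was possible because each group has 1 library. Absolute sequencing depth is unknown, which limits the precision of values near 1 FPKM most.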
